A study of Mus musculus with 6 samples.

Results

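Transforming growth factor beta (TGF-β) signalling was followed from ligand to target gene in bone marrow-derived macrophages (BMDMs) with and without Drp1, the GTPase that divides mitochondria. The 10 genes described are the ligand Tgfb1, the 2 carriers that can hold its latent form on a cell (Lrrc32 and Lrrc33), the receptors Tgfbr1 and Tgfbr2, the signal transducers Smad2, Smad3 and Smad4, the inhibitor Smad7 and the TGF-β-induced gene Tgfbi. They were chosen by name from the 36137 annotated genes, and all 10 had enough counts to be tested. Macrophages were grown from marrow of myeloid Drp1KO mice (LysM-Cre+/- Drp1fl/fl) and of WT controls (LysM-Cre+/- Drp1+/+), so that both groups carried the LysM-driven Cre, which acts in myeloid cells. For the culture of all libraries, the labels give 10% medium conditioned by L929 cells (L929 medium) and 10% fetal bovine serum. On day 7 of culture, cells were placed for 8 hours in serum-free starvation medium at 2.1% oxygen (hypoxia serum starvation, HSS), a culture model of ischemia. Both groups received HSS and no untreated library was analysed here, so the values describe the genotypes under HSS and not the response to it. Each group has 3 libraries of poly(A) RNA, labelled as biological replicates. The study's methods describe marrow pooled from 2 mice per genotype and do not state whether each library had its own pool, so that p-values measure the spread between these libraries.

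TGF-β1 is secreted as a latent complex, in which the mature cytokine is held by its own propeptide, and it must be released before it can bind. The free cytokine binds the type II receptor (Tgfbr2), which recruits and phosphorylates the type I receptor (Tgfbr1). The type I receptor phosphorylates Smad2 and Smad3, and these enter the nucleus with Smad4 to act on target genes, among them Smad7, whose product blocks the receptor. In macrophages this pathway is known for its part in restraining inflammatory genes and in tissue repair.

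The libraries held 23389488 to 32231206 estimated counts. Levels are given as CPM, the estimated counts scaled to the normalized library size, when 1 gene is compared between libraries, and 3 counts, taken as the floor of detection, are 0.0917 to 0.136 CPM. The targeted gene Dnm1l, which encodes Drp1, had 72.7, 69.9 and 75.1 CPM in WT and 58.7, 60.7 and 66.3 CPM in Drp1KO libraries 1 to 3. Its groups did not overlap, as for 21.9% of all genes, and the log2 fold change of -0.23 (SE 0.09) did not pass (edgeR adjusted p = 0.248, and 0.0738 with the replicate number as a block). The sum covers all exons, and which of them the deletion removes is not given in the sources used here. At the protein level, which RNA does not measure, the study reported deletion of DRP1 in BMDMs by immunoblot, with Drp1fl/fl mice as controls. Macrophage markers were high in every library, with Lyz2 at 8173 to 9961 CPM and Adgre1 at 1210.3 to 1587 CPM. The summed level of the 9 macrophage markers was 13726 to 15354 CPM in WT and 12347 to 14756 CPM in Drp1KO libraries. The 7 fibroblast markers summed to 1.99 to 3.45 CPM in WT and 2.05 to 2.36 CPM in Drp1KO libraries, and the 7 platelet and megakaryocyte markers to 2.85 to 6.13 and 4.0 to 5.64 CPM. The 6 neutrophil markers summed to 5.48 to 16.3 CPM in WT and 14.2 to 37.8 CPM in Drp1KO libraries, with Ly6g at 0 in all and Mpo, Elane and Retnlg at 0.521 CPM or less. Nearly all of that sum was S100a9 (3.45, 10.2 and 12.1 CPM in WT and 10.9, 26.2 and 26.4 CPM in Drp1KO libraries) and S100a8 (1.90, 3.22 and 3.85 CPM and 2.91, 9.65 and 10.8 CPM). In edgeR neither passed without the block (adjusted p = 0.139 and 0.122) and both were higher with it (7.85e-05 and 0.00145), while DESeq2, fitted without the block, called S100a8. The 7 T lymphocyte markers summed to 313 to 330.2 CPM in WT and 131 to 255 CPM in Drp1KO libraries, nearly all of it Cd4. The 6 dendritic cell markers summed to 3.75 to 5.86 and 2.45 to 4.49 CPM, and the 5 endothelial markers to 47.6 to 63.9 and 45.7 to 62.1 CPM. Of the endothelial markers, Kdr rose from 12.2, 8.92 and 9.10 CPM in WT to 23.1, 17.4 and 17.7 CPM in Drp1KO libraries (log2 fold change 0.94, SE 0.17; adjusted p = 0.0144), a call lost without WT replicate 2 or 3 (adjusted p up to 0.106). Vwf, which made up most of the sum, had 35.1, 51.2 and 54.6 CPM in WT and 38.4, 27.7 and 40.7 CPM in Drp1KO libraries (adjusted p = 0.313). The other endothelial markers were low over the 6 libraries, with Cdh5 at 0.0681 to 0.580 CPM, Emcn at 0.0454 to 0.0862 CPM and Tek at 0 to 0.129 CPM. Libraries numbered 1 stood apart together in both groups, since their deviations from the group means correlated at 0.510 with each other and at -0.443 to -0.202 with the other libraries of the opposite group. In bulk RNA, fewer cells of a type and less RNA per cell cannot be told apart.

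None of the 10 genes passed an adjusted p of 0.05 between Drp1KO and WT BMDMs. With edgeR's quasi-likelihood test, 621 of 18506 genes tested (3.36%) passed, 424 of them higher (2.29%) and 197 lower (1.06%) in Drp1KO libraries. The count over the 10 genes was also 0 with DESeq2, which gave Lrrc32 no adjusted p, and with limma-voom. At an unadjusted p under 0.05, Tgfbr1 and Smad4 passed, 2 of 10, against 16.4% of all genes. None passed the study's criteria of a fold change over 1.25 with an unadjusted p under 0.05, which 12.7% of all genes met. The log2 fold change was positive for 7 of the 10 genes and negative for 3, with a median of 0.19, against a median of 0.0046 over all genes. The groups did not overlap for 2 genes, Tgfbr1 and Smad7 (20% of the 10, against 21.9% of all genes). Replicate numbers were taken to pair the libraries, which the labels do not state. In its deviations from the group mean, WT 2 was closer to Drp1KO 3 than to Drp1KO 2 (correlations 0.326 and 0.204). With the replicate number as a block Tgfbr1 and Smad3 passed (2 of 10, against 12% of all genes).

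**Figure D1:**
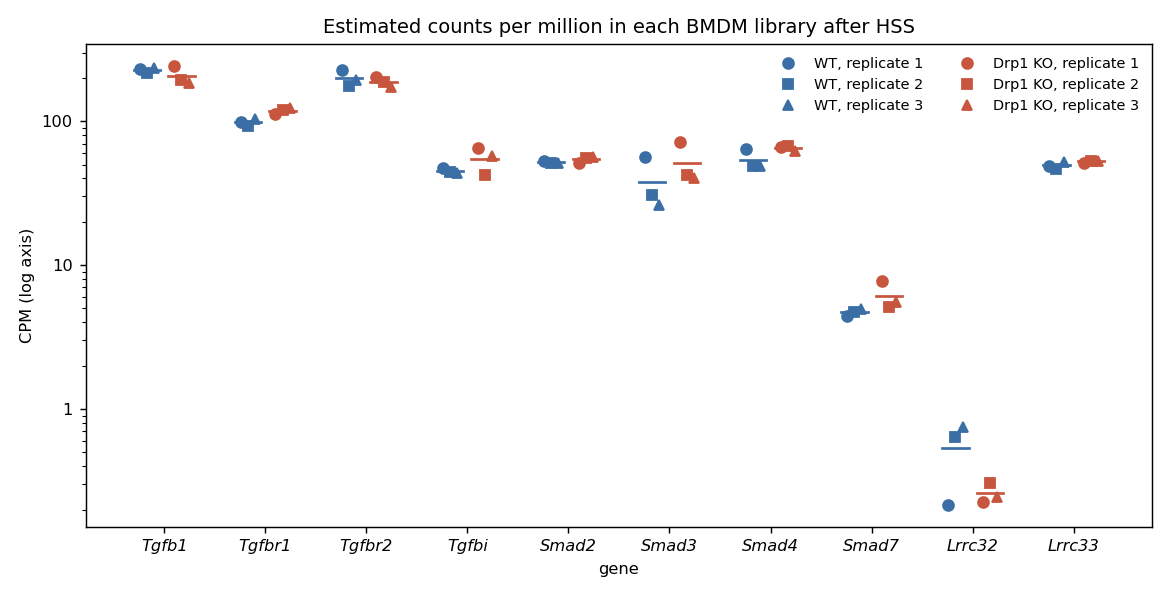
Level of each gene in each library, in CPM on a log axis. Blue marks are WT and red marks Drp1KO libraries, the marker shape gives the replicate number, and bars are group means. Tgfb1, Tgfbr2 and Tgfbr1 lie near or above 100 CPM in every library, Lrrc32 lies under 1 CPM, and the Smad3 points of replicate 1 stand above the other 2 points of their group.

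Tgfb1 (chr7:25386390-25404506, plus strand, GRCm39) encodes the ligand. Its level was 230.2, 217 and 236 CPM in WT libraries 1 to 3 and 242, 195 and 186 CPM in Drp1KO libraries 1 to 3. The highest value was in Drp1KO library 1 and the 2 lowest were in the other Drp1KO libraries, so the groups overlapped. The means were 228 ± 9.91 and 208 ± 30.4 CPM (SD, n = 3), and the log2 fold change was -0.13 (SE 0.11; edgeR adjusted p = 0.654). Between same-numbered libraries, the log2 difference was 0.07, -0.15 and -0.34. The sign depended on how counts were added, since counts scaled for transcript length gave a log2 fold change of 0.09 (adjusted p = 0.801).

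With 1 short transcript, Tgfb1-203, left out of the length-scaled counts, the log2 fold change was -0.21 (adjusted p = 0.477). This transcript, and the fit without it, were chosen after its values were seen. It has 495 bases on 3 exons and is annotated as a retained intron. Its last exon runs from exon 4 through the intron into exon 5 of the main coding transcript, Tgfb1-201, which has 7 exons. The sequence of that exon is shown because the intron is what sets the transcript apart, with the bases that Tgfb1-201 keeps in lower case and the retained intron in capitals (chr7:25396343-25396599, plus strand, GRCm39).
Tgfb1-203, last exon: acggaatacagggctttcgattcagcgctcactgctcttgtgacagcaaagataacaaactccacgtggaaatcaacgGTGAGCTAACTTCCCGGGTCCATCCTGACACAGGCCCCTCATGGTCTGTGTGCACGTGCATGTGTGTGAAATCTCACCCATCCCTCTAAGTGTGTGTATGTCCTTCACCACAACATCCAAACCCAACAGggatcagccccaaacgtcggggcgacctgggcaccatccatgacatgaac
The intron (chr7:25396421-25396549) is 129 bases long with 52.7% G and C, and begins with GT and ends with AG as spliced introns do. Read on in the frame of exon 4, it gives 28 whole codons and then a TAA stop whose first base is base 87 of the intron. The other 366 bases of Tgfb1-203 are shared with Tgfb1-201. Of its 465 overlapping 31-base words, the length kallisto matches by default, 157 occur in no other annotated transcript.

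Tgfb1-203 had 0, 14.3 and 0 estimated counts in WT libraries 1 to 3 and 145, 189 and 170.2 estimated counts in Drp1KO libraries 1 to 3. All Drp1KO libraries were above all WT libraries. The transcript took 0%, 0.247% and 0% of the Tgfb1 counts in WT and 2.71%, 2.97% and 2.81% in Drp1KO libraries. In a fit over all 62020 transcripts with enough counts, its log2 fold change was 5.03 (SE 1.17; edgeR adjusted p = 0.171), which did not pass. In that fit 206 transcripts (0.332%) passed, and 17.5% of transcripts had groups that did not overlap. The adjusted p ran from 0.0729, without WT replicate 2, to 0.358, without Drp1KO replicate 2, and was 0.232 with the replicate block. The fitted log2 fold change without WT replicate 2, where the remaining WT libraries were at 0, was 10.35 and depends on the prior count.

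Because the transcript is short, it weighs more per length than per count. On the deposited TPM scale, which is per length, Tgfb1-203 was at 0, 2.62 and 0 TPM in WT and 25.9, 24.7 and 22.7 TPM in Drp1KO libraries. The main transcript Tgfb1-201 was at 111, 101 and 117 TPM in WT and 106, 84.8 and 84.6 TPM in Drp1KO libraries. With all transcripts added, Tgfb1 was at 128 ± 10.9 TPM in WT and 128 ± 11.5 TPM in Drp1KO libraries (SD, n = 3). Without Tgfb1-203 the means were 127 ± 12 and 103 ± 10.1 TPM, and every Drp1KO library (115, 99.2 and 95.9 TPM) was below every WT library (124, 117 and 140.2 TPM). This gap follows from leaving out a transcript chosen for its difference and was given no test. The transcript level is kallisto's split of reads that partly match both transcripts, and its uncertainty is not in these values. The effective length that kallisto gave to Tgfb1-203 was 277, 274 and 273 bases in WT and 318, 305 and 313 bases in Drp1KO libraries. Over the 1670 transcripts within 10 bases of its length, the median effective length was 268 to 275 bases in WT and 279 to 296 bases in Drp1KO libraries. The part of this shift in the count was not tested. Retained-intron transcripts as a class took 3.38% to 4.02% of counts in WT and 3.46% to 3.99% in Drp1KO libraries. Another short Tgfb1 transcript, Tgfb1-202, did not separate the groups, at 56.9, 7.58 and 9.77 estimated counts in WT and 9.18, 74.7 and 49.5 in Drp1KO libraries.

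**Figure D2:**
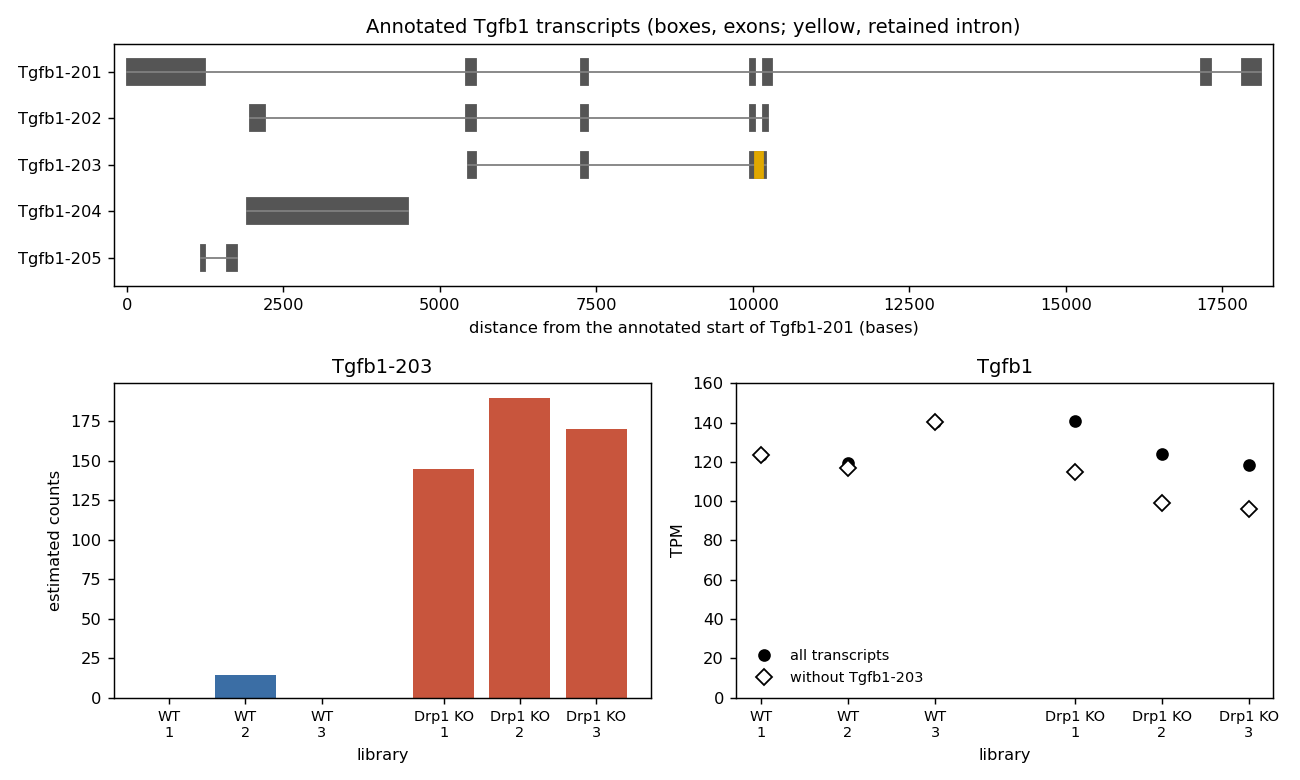
Top, the annotated Tgfb1 transcripts by distance in bases from the start of Tgfb1-201, with exons as boxes and the retained intron of Tgfb1-203 in yellow. Bottom left, estimated counts of Tgfb1-203 in each library, with 145 to 189 in Drp1KO against 0 to 14.3 in WT. Bottom right, Tgfb1 level in TPM with all transcripts (filled) and without Tgfb1-203 (open), where the Drp1KO values drop from 119 to 141 TPM to 95.9 to 115 TPM.

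Of the 2 carriers of latent TGF-β, Lrrc33 was well detected and Lrrc32 was near the floor. Lrrc33 (annotated as Nrros, chr16:31960320-31984521, minus strand), which tethers latent TGF-β1 on macrophages and microglia, had 48.9, 46.7 and 52.2 CPM in WT and 51.5, 53.2 and 53.2 CPM in Drp1KO libraries. The groups overlapped by WT library 3 alone, and the log2 fold change was 0.09 (SE 0.09; adjusted p = 0.696). Lrrc32 (chr7:98138490-98151388, plus strand), which does the same on regulatory T cells and platelets, had 5, 17 and 22 counts in WT and 5, 10 and 8 counts in Drp1KO libraries. These are 0.216, 0.637 and 0.750 CPM and 0.227, 0.306 and 0.245 CPM. WT library 1 was as low as the Drp1KO libraries, and the log2 fold change of -1.04 (SE 0.54) had an adjusted p of 0.386. Of the 7 T lymphocyte markers, the CD3 subunits of the T cell receptor were at 2.09 to 4.91 CPM (Cd3d), 1.13 to 3.19 CPM (Cd3g) and 0.0341 to 0.306 CPM (Cd3e) over the 6 libraries. Cd8a was at 1.02 to 1.68 CPM and Foxp3, a regulatory T cell marker, at 0.409 to 1.01 CPM. Cd4 was lower in every Drp1KO library, at 119 to 245 CPM against 303 to 319 CPM in WT (adjusted p = 0.0595, and 0.00228 with the block). Il2ra, which regulatory T cells also express, was higher in every Drp1KO library, at 1.74 to 2.55 CPM against 0.818 to 1.21 CPM in WT (adjusted p = 0.0561, and 0.0117 with the block). DESeq2, fitted without the block, called Cd4 and Il2ra, and limma-voom called 1 of the 7 T lymphocyte markers. The part of these markers in the Lrrc32 values was not tested.

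The type I receptor was higher in every Drp1KO library, and the type II receptor was not. Tgfbr1 (chr4:47353134-47414931, plus strand) had 98.6, 92.6 and 103 CPM in WT and 112, 120.3 and 124 CPM in Drp1KO libraries. The lowest Drp1KO value was above the highest WT value. Its means of 98.1 ± 5.23 and 119 ± 6.07 CPM (SD, n = 3) gave a log2 fold change of 0.28 (SE 0.09), with an unadjusted p of 0.0124 and an adjusted p of 0.148. An exact two-sided permutation test gave p = 0.1, the smallest that 3 against 3 libraries allow. With the replicate block, the log2 fold change was 0.28 (SE 0.07) and the adjusted p was 0.0349. The log2 difference between same-numbered libraries was 0.18, 0.38 and 0.26. The adjusted p without the block ran from 0.113 to 0.496 when 1 library was left out. On the TPM scale the groups overlapped, at 38.9, 42.2 and 49.8 TPM in WT and 41.6, 50.2 and 52.4 TPM in Drp1KO libraries.

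Tgfbr2 (chr9:115913361-116004800, minus strand), the receptor that first binds the ligand, had 226, 176 and 194 CPM in WT and 204, 186 and 173 CPM in Drp1KO libraries. The log2 fold change was -0.08 (SE 0.11; adjusted p = 0.825), and it turned to 0.02 without WT replicate 1, the highest library. Its estimated counts lay on 2 coding transcripts, and the annotated coding sequence of Tgfbr2-202 has an exon of 75 bases (25 codons) that Tgfbr2-201 lacks. The exon is shown, all in capitals, because it is the coding difference between the annotated forms (chr9:115987339-115987413, minus strand, GRCm39).
Tgfbr2-202, alternative exon: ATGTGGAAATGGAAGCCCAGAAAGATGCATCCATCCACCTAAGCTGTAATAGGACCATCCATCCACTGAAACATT
The 2 sequences that were quantified also differ outside this exon, since they are 3476 bases long for Tgfbr2-201 and 8092 for Tgfbr2-202, so the shares do not measure use of the exon. Tgfbr2-202 took 46.8%, 47.8% and 50.6% of the gene's counts in WT and 49.7%, 51.9% and 52.9% in Drp1KO libraries. The means of 48.4 ± 1.97% and 51.5 ± 1.64% (SD, n = 3) differed by 3.09 percentage points, and the groups overlapped (exact two-sided permutation p = 0.2).

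The receptor-regulated SMADs differed in how steady they were. Smad2 (chromosome 18) had 52.7, 51.5 and 51.7 CPM in WT and 51.2, 55.3 and 56.5 CPM in Drp1KO libraries, a log2 fold change of 0.07 (SE 0.09; adjusted p = 0.815). Per length the order turned, with 33.4, 32.8 and 35.2 TPM in WT and 26.7, 30.6 and 29.7 TPM in Drp1KO libraries, and length-scaled counts gave a log2 fold change of -0.14 (adjusted p = 0.613). The long transcripts Smad2-205 and Smad2-201 took larger shares of the counts in every Drp1KO library. Smad2-205, of 8089 bases, took 42.4%, 44.5% and 44.2% in WT and 45.8%, 45.8% and 47.2% in Drp1KO libraries. Smad2-201, of 2410 bases, took 30.0%, 32.3% and 30.1% in WT and 34.8%, 34.6% and 38.5% in Drp1KO libraries. For each the exact two-sided permutation p was 0.1, the smallest possible, and 0.514 after adjustment over the 18 transcripts of the 10 genes with a mean share of at least 10%. Of those 18, these and Tgfb1-201 had groups that did not overlap (3, or 16.7%, against 18.4% of such transcripts over all genes). The short transcript Smad2-206, of 972 bases and with a mean share under the 10% set for a test, had 55.0, 63.9 and 82.4 estimated counts in WT and 16.8, 61.3 and 0 in Drp1KO libraries.

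Smad3 (chr9:63554049-63665476, minus strand) had 56.6, 30.9 and 26.3 CPM in WT and 71.3, 42.5 and 40.0 CPM in Drp1KO libraries. Libraries numbered 1 were the highest of both groups, and within each number the Drp1KO library was higher, by a log2 difference of 0.33, 0.46 and 0.61. Without the block the log2 fold change was 0.43 (SE 0.29) and the adjusted p 0.525. With the replicate block, it was 0.46 (SE 0.08) and the adjusted p 0.00522, so Smad3 rose in Drp1KO libraries in that fit alone. The log2 fold change without the block was 0.84 without WT replicate 1 (adjusted p = 0.0840) and 0.11 without Drp1KO replicate 1 (adjusted p = 0.882). Nearly all its counts, 99.3% to 99.7% in each library, lay on the transcript Smad3-201.

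Smad4 (chromosome 18), the partner that Smad2 and Smad3 share, had 63.8, 48.5 and 48.8 CPM in WT and 65.8, 67.6 and 61.7 CPM in Drp1KO libraries. WT library 1 lay within the Drp1KO range and the other WT libraries lay below it. The log2 fold change was 0.28 (SE 0.12; unadjusted p = 0.0446, adjusted p = 0.289). With the replicate block the adjusted p was 0.0700, and the log2 difference between same-numbered libraries was 0.04, 0.48 and 0.34. Without WT replicate 1 the log2 fold change was 0.42 and the adjusted p 0.0488. On the TPM scale all Drp1KO libraries, at 33.0, 32.8 and 33.1 TPM, were above all WT libraries, at 32.0, 25.7 and 27.2 TPM.

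Smad7 (chromosome 18), the inhibitory SMAD and itself a target of the pathway, had 4.44, 4.72 and 4.94 CPM in WT and 7.76, 5.10 and 5.55 CPM in Drp1KO libraries. The groups did not overlap, with WT library 3 and Drp1KO library 2 closest to each other and Drp1KO library 1 well above the rest. The log2 fold change was 0.38 (SE 0.19; adjusted p = 0.377), or 0.17 without Drp1KO replicate 1. On the TPM scale the groups overlapped, at 1.19, 1.16 and 1.74 TPM in WT and 1.85, 1.46 and 1.39 TPM in Drp1KO libraries. Tgfbi (chr13:56757336-56787375, plus strand), which encodes a secreted matrix protein induced by TGF-β, had 47.0, 44.7 and 43.9 CPM in WT and 64.7, 42.0 and 57.8 CPM in Drp1KO libraries. Drp1KO library 2 was the lowest of all 6 libraries and the other Drp1KO libraries were the highest. The log2 fold change was 0.28 (SE 0.15; adjusted p = 0.391), and the WT libraries were closer together (45.2 ± 1.61 CPM) than the Drp1KO libraries (54.8 ± 11.6 CPM; SD, n = 3).

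**Figure D3:**
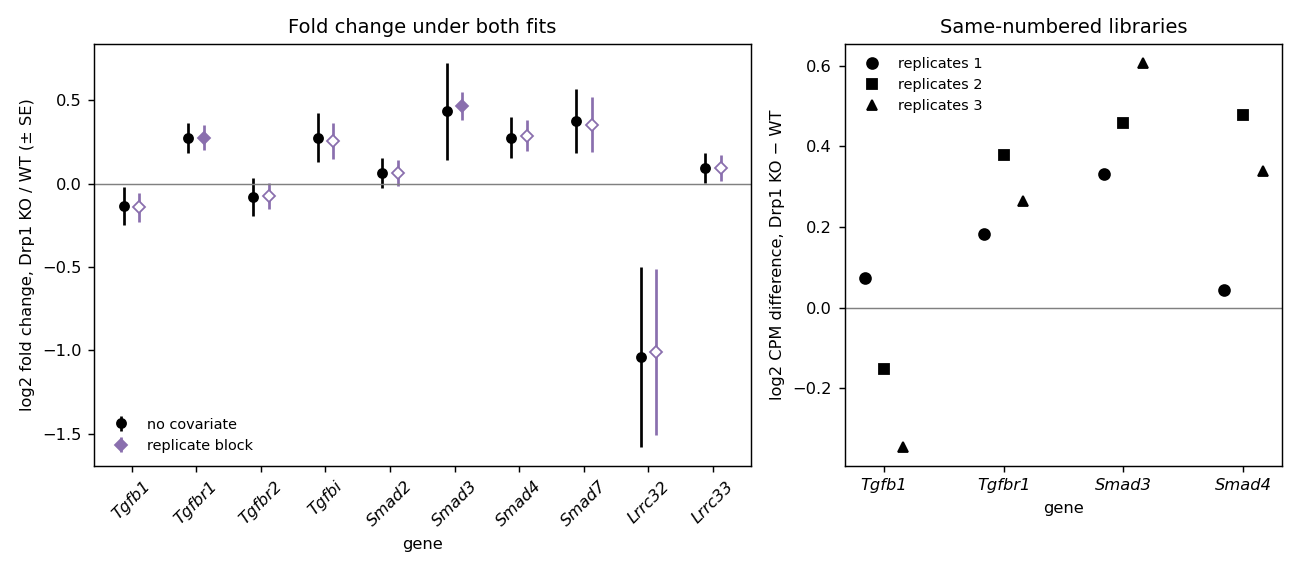
Left, log2 fold change of Drp1KO over WT with its SE for each gene, without a covariate (black circles) and with the replicate block (diamonds, filled where the adjusted p is under 0.05, open where it is not). Right, log2 CPM difference between same-numbered libraries for 4 genes. Tgfbr1 and Smad3 have filled diamonds and differences above 0 in all 3 pairs, Smad4 has 0.04 in pair 1, and Tgfb1 runs from 0.07 to -0.34.

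Between genes, levels were compared on the TPM scale. Tgfb1 was highest, at 119 to 141 TPM over the 6 libraries, and above the other 9 genes in each library. Tgfbr2 followed at 44.3 to 60.2 TPM and Tgfbr1 at 38.9 to 52.4 TPM. The 2 receptors overlapped in range, and Tgfbr2 was the higher one in all 3 WT libraries and in 1 of 3 Drp1KO libraries, a difference that was not tested. Smad2 (26.7 to 35.2 TPM), Smad4 (25.7 to 33.1 TPM), Tgfbi (24.7 to 33.2 TPM) and Lrrc33 (25.8 to 31.2 TPM) formed a middle group in which each neighbour overlapped the next. Smad3 was lower, at 7.74 to 17.5 TPM, and its range was apart from those of its neighbours. Smad7 (1.16 to 1.85 TPM) and Lrrc32 (0.0684 to 0.256 TPM) were lowest and also apart.

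The rest of the pathway was read from 8 lists that hold 101 other genes, of which 95 were tested. Inhba rose, and Mmp9, Mmp14, Ldlrad4 and Mertk fell, 5 of 95 genes (5.26%, against 3.36% of all genes). Another 90 did not pass. DESeq2, which gave 18 genes no adjusted p, called 10 and limma-voom 4. With the replicate block 18 passed (18.9%, against 12% of all genes), 11 higher and 7 lower. The study's criteria were met by 20 of the 95 genes (21.1%, against 12.7% of all genes), and the groups did not overlap for 23 (24.2%, against 21.9%). The median log2 fold change was -0.013, against 0.0046 over all genes.

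Among 14 other ligands of the superfamily, 13 were tested and 1 rose (7.69%, against 3.36% of all genes that passed and 2.29% that passed as higher). Inhba, the βA subunit of activins, had 5.17, 4.39 and 5.18 CPM in WT and 17.8, 8.65 and 8.83 CPM in Drp1KO libraries, with a log2 fold change of 1.25 (SE 0.27; adjusted p = 0.0348). The lowest Drp1KO library was above the highest WT library. The call was lost without WT replicate 1, 2 or 3 (adjusted p = 0.0576, 0.182 and 0.121), with limma-voom (0.0623) and with length-scaled counts (0.0885). Gdf15, a stress-induced ligand and the most abundant of the list by count, followed the library number and not the genotype, at 116, 50.8 and 35.1 CPM in WT and 110.5, 76.3 and 36.0 CPM in Drp1KO libraries (adjusted p = 0.937). In the fit with the replicate block 2 of 13 passed, Inhba and Gdf3, both higher (15.4%, against 12% of all genes). Gdf3, a growth and differentiation factor, had 0.819, 1.69 and 3.10 CPM in WT and 5.36, 3.79 and 7.05 CPM in Drp1KO libraries without overlap (log2 fold change 1.51, SE 0.40; adjusted p = 0.0758, and 0.00348 with the block). DESeq2 called it too. It was named after its values were seen, as were the other TGF-β ligands, which were low, with Tgfb3 at 2.72 to 4.54 CPM and Tgfb2 at 0 to 0.153 CPM.

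Of 11 other receptors and co-receptors, 10 were tested and 0 passed with edgeR, DESeq2 or limma-voom. At an unadjusted p under 0.05, 2 of 10 passed, against 16.4% of all genes. Bmpr2, a type II receptor for bone morphogenetic proteins, had 204 to 264 CPM in WT and 227 to 271 CPM in Drp1KO libraries. Acvrl1, a type I receptor known from endothelium, had 40.3 to 47.7 CPM in WT and 31.3 to 44.6 CPM in Drp1KO libraries. The block gave 1 call of 10 (10%, against 12% of all genes). That call was Bmpr1a, a type I receptor for bone morphogenetic proteins, named after its values were seen. It had 14.9, 15.4 and 16.3 CPM in WT and 19.9, 18.2 and 23.7 CPM in Drp1KO libraries without overlap (log2 fold change 0.41, SE 0.13; adjusted p = 0.131, and 0.0232 with the block). Of the 4 other SMADs, 0 passed with the 3 tools and 0 had an unadjusted p under 0.05. Smad1, which acts downstream of bone morphogenetic proteins, had 34.7, 24.5 and 23.0 CPM in WT and 38, 33.2 and 31.5 CPM in Drp1KO libraries. Its adjusted p was 0.353 without the block, 0.0365 with it and 0.0470 without WT replicate 1. Smad5, of the same branch, had 26.3 to 29.5 CPM in WT and 28 to 33.3 CPM in Drp1KO libraries.

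In the list for the latent complex and its activation, 2 of 16 genes tested fell (12.5%, against 3.36% of all genes that passed and 1.06% that passed as lower), and the median log2 fold change was -0.22. Mmp14, a membrane-anchored matrix protease, fell from 531, 493 and 400.2 CPM in WT to 337, 274 and 302 CPM in Drp1KO libraries (log2 fold change -0.64, SE 0.13; adjusted p = 0.0229). The call was lost without WT replicate 2 (0.128), Drp1KO replicate 2 (0.114) or Drp1KO replicate 3 (0.0707). Mmp9, a secreted gelatinase, fell from 4.48, 7.83 and 3.68 CPM to 1.09, 1.34 and 2.42 CPM (log2 fold change -1.70, SE 0.36; adjusted p = 0.0311). Its call was lost without WT replicate 2 (0.150), Drp1KO replicate 1 (0.0510) or Drp1KO replicate 2 (0.161) and with length-scaled counts (0.108). With the replicate block, 6 of 16 passed, 1 higher and 5 lower (37.5%, against 12% of all genes). DESeq2 called 5 without the block, Mmp9, Mmp14, Itgav, Itgb3 and Itgb5. The higher gene, Itgav, and the lower genes Itgb3 and Itgb5 encode integrin subunits that can pair as αvβ3 and αvβ5, and they were named after their values were seen. Itgav had 176 to 190 CPM in WT and 224 to 239 CPM in Drp1KO libraries (adjusted p = 0.0711, and 0.0112 with the block). Itgb3 had 90.8 to 101 CPM in WT and 55.8 to 79.8 CPM in Drp1KO libraries (adjusted p = 0.0629, and 0.00927 with the block). Itgb5 had 105 to 132 CPM in WT and 84.0 to 94.7 CPM in Drp1KO libraries (adjusted p = 0.0669, and 0.00454 with the block). Itgb1, another partner of αv and the most abundant gene of the list by count, had 878 to 957 CPM in WT and 869 to 970.2 CPM in Drp1KO libraries (log2 fold change 0.0035; adjusted p = 0.994). For Itgav, Itgb3 and Itgb5 the groups did not overlap, and 8 of the 16 genes of the list shared that property, against 21.9% of all genes. Itgb8, the αv partner known for releasing TGF-β from Lrrc32 and Lrrc33, also named after its values were seen, was low, at 0.375 to 0.600 CPM in WT and 0.0908 to 0.336 CPM in Drp1KO libraries.

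Among 17 genes listed for negative regulation and turnover, 16 were tested and 1 fell (6.25%, against 3.36% of all genes that passed and 1.06% that passed as lower). Ldlrad4, a membrane protein that keeps SMAD2 and SMAD3 from the type I receptor, had 9.40, 7.83 and 9.30 CPM in WT and 6.26, 4.92 and 5.28 CPM in Drp1KO libraries (log2 fold change -0.69, SE 0.16; adjusted p = 0.0446). The call was lost without WT replicate 1, 2 or 3 (0.0799, 0.103 and 0.189), without Drp1KO replicate 2 or 3 (0.183 and 0.131) and with length-scaled counts (0.0811). With the block 3 of 16 passed (18.75%, against 12% of all genes), Ldlrad4 lower and Skil and Tgif1 higher, the latter 2 named after their values were seen. Skil, a SMAD co-repressor that is also listed among the target genes, had 93.1, 108 and 88.4 CPM in WT and 109.6, 128 and 131 CPM in Drp1KO libraries without overlap (adjusted p = 0.131, and 0.0210 with the block). Tgif1, another SMAD co-repressor, had 56.4, 52.4 and 46.6 CPM in WT and 83.5, 64.8 and 54.7 CPM in Drp1KO libraries, higher within each number (adjusted p = 0.230, and 0.0185 with the block). Usp15, a deubiquitinase of the receptor, and Ppm1a, a SMAD phosphatase, were the most abundant by count and had adjusted p values of 0.859 and 0.799. Of 12 adaptors and nuclear cofactors, 11 were tested and 0 passed with the 3 tools. At an unadjusted p under 0.05, 1 of 11 passed, against 16.4% of all genes. Zeb2, a SMAD-binding repressor, had 985 to 1159 CPM in WT and 910 to 963 CPM in Drp1KO libraries without overlap (log2 fold change -0.21; adjusted p = 0.338), and Ep300, a histone acetyltransferase, had 291 to 297 and 280 to 291 CPM.

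Of 17 general target genes, 15 were tested and 0 passed with edgeR or limma-voom, with 4 at an unadjusted p under 0.05 (26.7%, against 16.4% of all genes), and DESeq2 called Id2. The block gave 4 calls, Id2, Cdkn1a, Skil and Bhlhe40, all higher (26.7%, against 12% of all genes). Over the 15 genes the log2 fold change was positive for 8 and negative for 7, with a median of 0.022. Fn1, which encodes fibronectin, was the lower one of the 4 at an unadjusted p under 0.05, with 3.19, 3.26 and 3.85 CPM in WT and 2.18, 2.47 and 2.76 CPM in Drp1KO libraries without overlap (log2 fold change -0.47, SE 0.20; adjusted p = 0.285, and 0.108 with the block). Id2, an inhibitor of helix-loop-helix factors, had 209, 157 and 134 CPM in WT and 321, 249.9 and 215 CPM in Drp1KO libraries (log2 fold change 0.65, SE 0.18; adjusted p = 0.0889). All Drp1KO libraries were above all WT libraries, and the adjusted p was 2.25e-04 with the replicate block. Cdkn1a, a cell cycle inhibitor, had 138 to 192 CPM in WT and 168 to 223 CPM in Drp1KO libraries (adjusted p = 0.330, and 0.0253 with the block). Bhlhe40, a helix-loop-helix repressor named after its values were seen, had 132, 100.1 and 89.5 CPM in WT and 212, 129 and 117 CPM in Drp1KO libraries, higher within each number (adjusted p = 0.270, and 0.00409 with the block). Of 12 genes that depend on TGF-β in macrophages and microglia, Mertk fell and 11 did not pass. The share called was 8.33%, against 3.36% of all genes that passed and 1.06% that passed as lower. Mertk, a receptor for clearing dead cells that is also among the macrophage markers, had 231, 244 and 272 CPM in WT and 157, 182 and 181 CPM in Drp1KO libraries (log2 fold change -0.52, SE 0.10; adjusted p = 0.0236). Its call was lost without WT replicate 2 or 3 (0.101 and 0.118) or Drp1KO replicate 2 or 3 (0.0840 and 0.0621). The replicate block gave 2 calls of 12 (16.7%, against 12% of all genes), Mertk lower and Axl higher. Axl, a receptor of the same family that was named after its values were seen, had 47.4, 20.9 and 20.0 CPM in WT and 63.5, 48.2 and 63.9 CPM in Drp1KO libraries. All Drp1KO libraries were above all WT libraries, and the log2 fold change was 0.99 (SE 0.29; adjusted p = 0.104, and 0.00340 with the block). Leaving out WT replicate 1, its highest WT value, or testing every gene with at least 1 count also gave a call for Axl. Of the 9 macrophage markers, Mertk and Csf1r fell and Fcgr1 rose (33.3%, against 3.36% of all genes). Csf1r, the receptor for the growth factor that sustains macrophages, had 996, 919.7 and 944 CPM in WT and 735, 576 and 688 CPM in Drp1KO libraries (log2 fold change -0.52, SE 0.11; adjusted p = 0.0340). Its call was lost with length-scaled counts (0.210) and when any library but Drp1KO replicate 1 was left out. Fcgr1, a high-affinity receptor for IgG, had 71.9, 57.8 and 67.6 CPM in WT and 151, 172 and 176 CPM in Drp1KO libraries (log2 fold change 1.34, SE 0.11; adjusted p = 3.22e-04), and it passed in every other setting (adjusted p up to 0.00556). The part of macrophage state in the Mertk value was not tested.

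**Figure D4:**
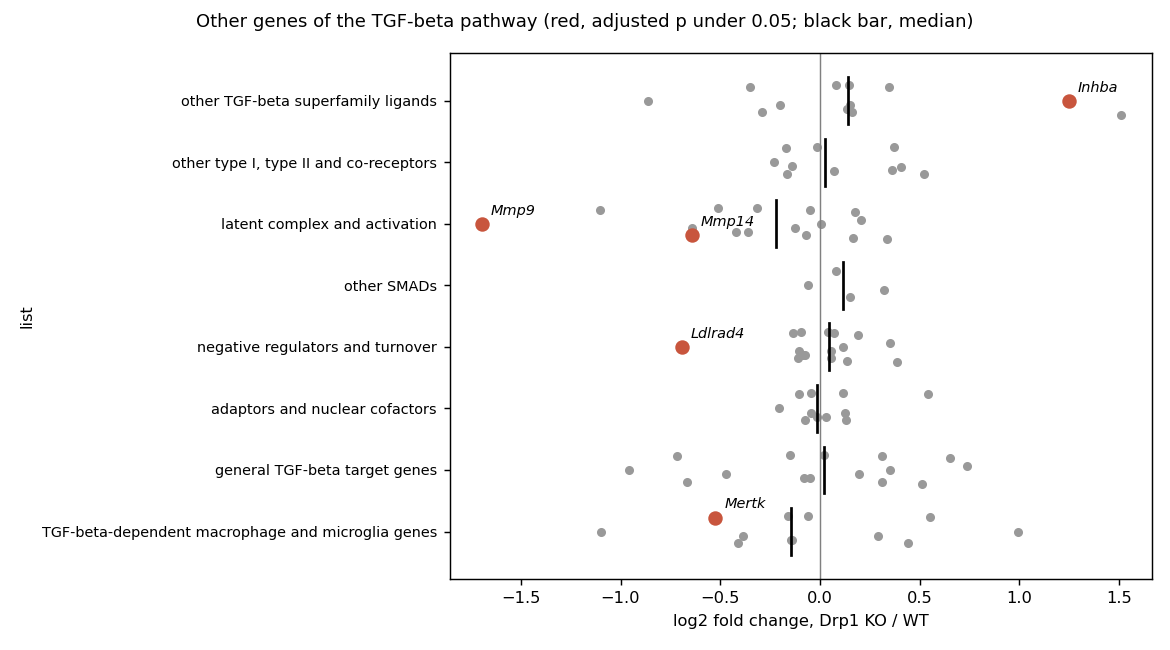
Log2 fold change of Drp1KO over WT for each tested gene of the 8 pathway lists. Large red points are the 5 genes with an adjusted p under 0.05, small grey points the others, and black bars the medians of the lists, which run from -0.22 for the latent complex and activation to 0.14 for the other ligands.

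The genes whose level over the 6 libraries was most like that of a member were found by Pearson's r of log2 CPM among the 7954 genes that averaged 10 CPM or more, as a description. They were Gm2541 (r = 0.998), Mfsd13a (0.992) and Rpl28-ps1 (0.992) for Tgfb1, and Vps37a (0.995), Tmem230 (0.993) and Slc25a36 (0.993) for Tgfbr1. For Tgfbr2 they were Ppm1a (0.993), Sgta (0.991) and Hsdl1 (0.988), and for Tgfbi they were Sdc1 (0.986), Mmp8 (0.981) and Slc41a2 (0.980). Vdac2 (0.997), Slc20a1 (0.997) and Gna13 (0.993) were most like Smad3, and Zfp36l2 (0.989), Ttc39b (0.971) and Arhgef10l (0.971) most like Smad7. The 6 points share the genotype split, the replicate numbers and the library depths.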

How the data were processed

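RNA from 3 WT and 3 Drp1KO BMDM libraries was quantified by the authors with kallisto 0.46.1 against Ensembl cDNA of GRCm39. The deposited estimated counts and TPM are per transcript, unscaled between libraries. Whether bias correction was used is not stated, and 17986 transcripts had an effective length above their own. The labels give 2.1% oxygen and 10% L929 medium, and the study's methods give other values. Transcripts were matched by identifier to GENCODE M39 (99.4% of 116873), and 0.542% to 0.575% of counts on the others were left out. Transcript estimates were summed by gene and taken to whole numbers. edgeR 4.0.16 (R 4.3.3; TMM, at least 10 counts in total, quasi-likelihood test, Benjamini-Hochberg adjustment over all genes) compared Drp1KO with WT, after a check on simulated data. SE is that of the log2 fold change. Alternatives were DESeq2 1.42.0, limma-voom 3.58.1, other scalings and filters, length-scaled counts, coding transcripts alone, a replicate block and leaving out each library. The transcript fit and the length-scaled fit without Tgfb1-203 were added after the data were seen.

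Replicate numbers were taken to pair libraries. Deviations from the group mean correlated at 0.510, 0.204 and 0.298 within numbers 1, 2 and 3, over 12248 genes, and between different numbers at -0.443 to 0.326, with WT 2 closer to Drp1KO 3 than to Drp1KO 2. The members and lists were chosen with earlier results of these data known. Of the lists, genes were named if they passed, or, in lists with under 2 such genes, for the highest CPM, and 1 gene so chosen is not reported here. Tgfb2, Tgfb3, Gdf3, Itgav, Itgb3, Itgb1, Itgb5, Itgb8, Fn1, Bmpr1a, Skil, Tgif1, Bhlhe40, Axl and the cell type markers given singly fall outside that rule and were named after their values were seen. Sequences were read from the GRCm39 genome with the exon models of GENCODE M39. Tgfb1-201 and Tgfbr2-202 are 2215 and 8559 bases long in those models, against 2175 and 8092 bases in the deposited data. Other transcript models of another length than in the deposited data were given no coordinates.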

Additional observations from a re-analysis of the deposited data

How the results depend on the processing

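With 621 genes called over all genes, the alternatives gave 1155 with DESeq2, 1065 with no filter beyond 1 count, 2212 with the replicate block and 181 to 904 with 1 library left out. Of the 10 members, 0 were called, against 2 with the replicate block (Tgfbr1 and Smad3) and 0 to 1 with a library left out (Smad4 without WT replicate 1). By the study's criteria the count was 1 with no filter beyond 1 count, 1 with the replicate block and 0 to 3 with a library left out. The share of all genes that met those criteria was 12.7% in the main fit. It is not given for these alternatives, so these counts cannot be set against it. Of the pathway lists, 5 genes were called, against 10 with DESeq2, 10 with no filter beyond 1 count, 8 with library size only, 2 with length-scaled counts, 18 with the replicate block and 0 (without WT replicate 2) to 7 with a library left out. The block changed no call of a member but those of Tgfbr1 and Smad3. Counts under the other alternatives stayed within 1.5 times the main count. Of the members and the genes named by rule, the log2 fold changes that turned were, with length-scaled counts, Tgfb1 (0.091), Smad2 (-0.14) and Ep300 (0.14), and, with coding transcripts alone, Smad5 (-0.047). With a library left out, and among the same genes, Tgfbr2 ran from -0.18 to 0.023, Bmpr2 from -0.022 to 0.15, Gdf15 from -0.28 to 0.78, Usp15 from -0.0075 to 0.11 and Ppm1a from -0.16 to 0.0031. With Tgfb1-203 left out of the length-scaled counts, Tgfb1 was at -0.21, with the sign of the unscaled counts. The cause of the other changes was not tested. Lrrc32, at 5 to 22 counts a library, is near the floor of 3 counts, and 3 libraries a group cannot give an exact permutation p under 0.1.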
